A study of Mus musculus with 16 samples.

Results

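miR-22 is a microRNA made from a single hairpin, and its arms, miR-22-3p (mmu-miR-22-3p in the table) and miR-22-5p (mmu-miR-22-5p), were followed here across extracellular vesicles (EVs) from mouse bone marrow plasma. They were taken by name from the deposited table of mature microRNAs and make up 2 of its 1915 entries. The vesicles came from 6-month-old C57BL/6N mice, all of which carried the CAGS-Snorkel reporter together with a Cre driver. The first group, called Ocn, carried Ocn-Cre (6 mice, 3 male and 3 female), a transgene driven by the osteocalcin promoter, which is active in mature osteoblasts and osteocytes. The second group, called Prx1, carried Prx1-Cre (10 mice, 5 male and 5 female), a driver of limb bud mesenchyme that marks the stromal and bone cells derived from it. The comparison therefore sets vesicles captured with the osteoblast driver against vesicles captured with the broader mesenchymal driver. Vesicles were captured through an HA tag, and neither Cre-negative mice nor plasma before capture were analysed here, which leaves these values without a measured background.

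As background, a microRNA hairpin is cut into a short duplex, 1 strand of which is usually retained in the silencing complex while the other is lost. The retained strand pairs with messenger RNAs mainly through its seed, and represses them. The 3p arm is the usual product of the miR-22 hairpin. miR-22 is known to be abundant in heart and skeletal muscle, where in mice it represses the histone deacetylase gene Hdac4. In human stromal cells it has been reported to favour osteogenic over adipogenic differentiation through the histone deacetylase HDAC6, and in mouse blood stem cells to repress Tet2.

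The mature sequences are shown because the arms differ in seed, and hence would pair with different messages. They are RefSeq sequences on GRCm38.p6 (the mm10 assembly), written 5′ to 3′, with the seed (bases 2 to 8) in capitals.
miR-22-3p: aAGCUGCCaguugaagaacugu
miR-22-5p: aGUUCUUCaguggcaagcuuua

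In the hairpin the mature arms, in capitals here, lie on either side of the loop, with the 5p arm at positions 19 to 40 and the 3p arm at positions 57 to 78 of 95 bases.
Mir22 hairpin: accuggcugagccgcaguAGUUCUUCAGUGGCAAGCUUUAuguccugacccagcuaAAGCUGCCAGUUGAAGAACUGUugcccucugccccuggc

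In the predicted fold of the hairpin (minimum free energy of -41.9 kcal/mol), 19 of the 22 bases of each arm paired with the other arm. Mir22 lies on chromosome 11 at 75463716 to 75463810, on the plus strand, in exon 2 of the noncoding host gene Mir22hg (75461539 to 75466676). The protein-coding gene Tlcd2 (75461715 to 75470899, plus strand) overlaps Mir22hg and spans Mir22, and one of its models, typed as a processed transcript in the GENCODE M21 annotation, has an exon over Mir22 as well. No other of 1679 mature mouse sequences in the RefSeq table shared the seed of miR-22-3p, and none shared that of miR-22-5p. The table matched 1623 of the 1915 entries by name.

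The mature sequence nearest to miR-22-3p was that of miR-3966, on chromosome 10, at an edit distance of 3. It carries the seed letters of miR-22-3p, in capitals here, at its positions 1 to 7 instead of 2 to 8.
miR-3966: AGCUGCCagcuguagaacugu

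miR-3966 had 0 counts in all 16 libraries. The sequence nearest to miR-22-5p was at an edit distance of 8.

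Counts per library were modest for the 3p arm and low for the 5p arm. Library totals were 582660 to 1536421 for Ocn and 225273 to 813770 for Prx1, and depth thus differed with the group (mean log10 total of 5.94 ± 0.17 in Ocn, n = 6, and 5.58 ± 0.16 in Prx1, n = 10; SD; exact permutation test, 2-sided, p = 0.00112). Whether the counts are reads or unique molecules is not given in the sources used here, so intervals and floors cover counting error only. All 14 stromal markers examined (among them the abundant miR-199a-3p and miR-143-3p) had counts, as did all 6 myeloid and leukocyte and all 5 erythroid markers. All 7 epithelial and all 7 muscle markers had counts too, so having counts does not tell cell types apart. The table holds neither the reporter nor the Cre, so it does not check which cells the vesicles came from.

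miR-22-3p was higher in Ocn than in Prx1. In Ocn it had 396, 408, 551, 354, 459 and 347 CPM (counts scaled to a library total of 1000000) in libraries 1 to 6. In Prx1 it ran from 256 CPM in Prx1 9 through a median of 282 CPM to 399 CPM in Prx1 7. The means were 419 ± 76 CPM in the 6 Ocn libraries and 297 ± 50 CPM in the 10 Prx1 libraries (± SD). The groups overlapped: all 6 Ocn libraries lay above the Prx1 mean and 3 of them above every Prx1 library, while 2 of 10 Prx1 libraries, Prx1 7 and Prx1 10, lay above the lowest Ocn library.

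**Figure D1:**
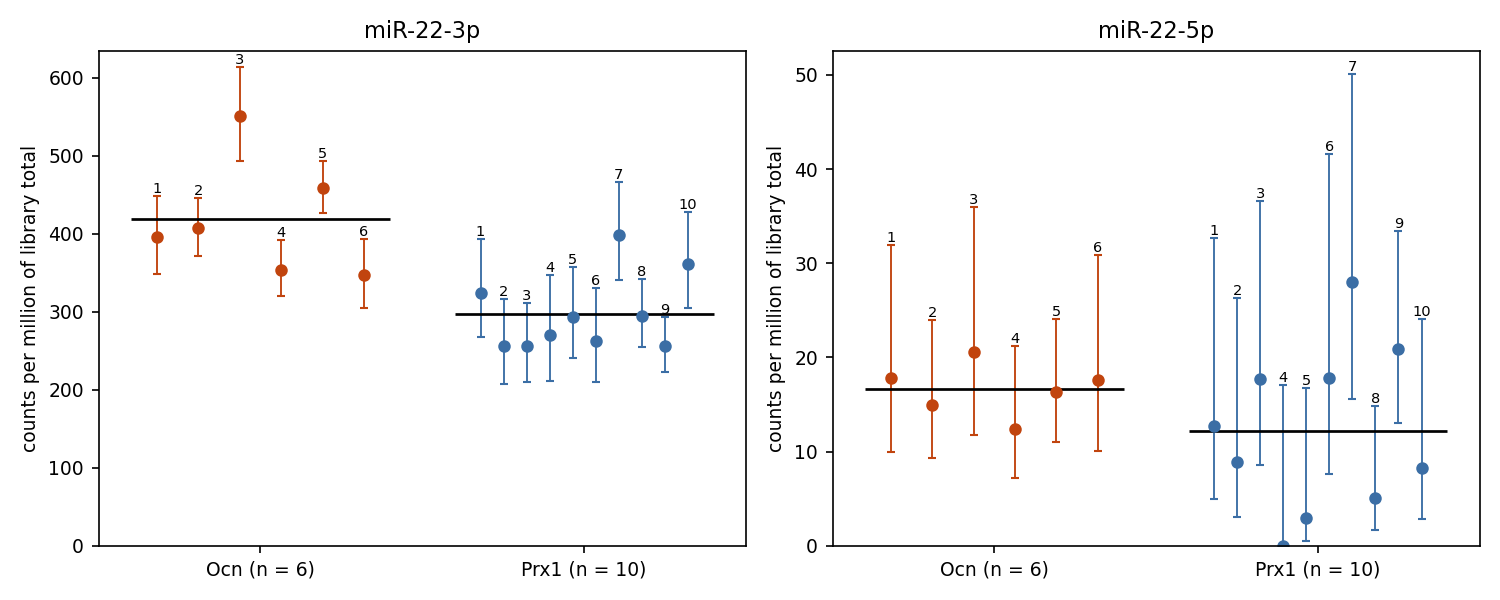
Level of each miR-22 arm by library, in CPM of the library total on a linear axis from 0, with Ocn left of Prx1. Points are libraries labelled by replicate number, bars are 95% Wilson intervals (counting error), and black lines are group means; the 3p means stand at 419 and 297 CPM, and the 5p means at 16.6 and 12.2 CPM with wide, overlapping intervals.

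In the edgeR quasi-likelihood fit over all 234 tested microRNAs, the log2 fold change of miR-22-3p, Ocn over Prx1, was 0.45 (SE 0.13, adjusted p = 0.0194), or 1.36-fold. This fit scales libraries by TMM factors, under which the means were 411 ± 51 CPM in Ocn and 301 ± 54 CPM in Prx1 (SD, n = 6 and 10). Of all tested microRNAs, 13.7% were called at an adjusted p below 0.05, 5.98% higher and 7.69% lower in Ocn, and the median log2 fold change was 0.01. Among the 32 called, miR-22-3p was 22nd by p and 25th by the size of its change, against a median size of 0.67 on the log2 scale. The difference is thus among the smaller of the called ones.

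The call did not hold under every setting. With log10 depth as a covariate the log2 fold change was 0.51 (edgeR adjusted p = 0.191), and 0 of 234 microRNAs were called in that fit, with 40 at an unadjusted p below 0.05. It was 0.40 without Prx1 2 (edgeR adjusted p = 0.0540) and 0.40 without Prx1 3 (edgeR adjusted p = 0.0502). Depth and driver could be compared directly in few libraries: 3 Ocn and 2 Prx1 libraries lay in the depth range that the groups share. In these, miR-22-3p had 396, 551 and 347 CPM in Ocn 1, Ocn 3 and Ocn 6, against 295 and 256 CPM in Prx1 8 and Prx1 9. The 95% Wilson intervals of Ocn 6 (305 to 394 CPM) and Prx1 8 (254 to 342 CPM) overlapped. With so few libraries in the shared range, depth and driver cannot be told apart. Within groups, the correlation of its log2 CPM with the log10 total was -0.18 over the 6 Ocn libraries and -0.06 over the 10 Prx1 libraries, given as a description.

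As a share of all counts, miR-22-3p made up 0.0419% ± 0.0076 of an Ocn library (SD, n = 6) and 0.0297% ± 0.0050 of a Prx1 library (SD, n = 10). The difference in means of 0.0122 percentage points passed the threshold (exact permutation test, 2-sided, p = 0.00162, adjusted p = 0.00425 over the 4 such tests of miR-22). Its place in the order of abundance ran from 85th to 97th in Ocn (median 93.5) and from 90th to 112th in Prx1 (median 102.5). By mean CPM it stood next to miR-340-5p in both groups, at 437 ± 134 CPM in Ocn and 317 ± 58 CPM in Prx1 (SD over 6 and 10 libraries), just above miR-22-3p in each. The entry just below it was miR-30a-3p in Ocn (414 ± 75 CPM) and miR-361-5p in Prx1 (290 ± 70 CPM). None of these neighbours differed from miR-22-3p by more than 1 SD.

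Ordered by CPM, the libraries formed a gradual series rather than separate blocks, and every library's 95% Wilson interval overlapped that of the next. Ocn 3 came first (interval 494 to 615 CPM), and it was the only library whose interval lay above the intervals of all 10 Prx1 libraries. Prx1 7 and Prx1 10 stood 4th and 6th. The last 8 places were all held by Prx1. The SD between libraries was 76.3 CPM in Ocn, against 22.5 CPM from counting alone, and 49.7 CPM in Prx1, against 28.6 CPM from counting alone. The libraries of a group thus varied beyond counting error, by 3.39 times in Ocn and 1.73 times in Prx1. Counting error was smaller in the deeper Ocn libraries, which raises the multiple there. Under TMM scaling the SDs were close, at 51 CPM in Ocn and 54 CPM in Prx1. A difference in spread between the groups was not tested.

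miR-22-5p, the other arm, was close to the limit of detection. It had 11, 17, 12, 13, 25 and 12 counts in Ocn libraries 1 to 6. In Prx1 it ran from 0 counts in Prx1 4, the shallowest library, through 1 count in Prx1 5 and 3 counts in each of Prx1 2, Prx1 8 and Prx1 10 to 11 counts in Prx1 7 and 17 counts in Prx1 9. The 0 in Prx1 4 allows a level of up to 13.3 CPM (3 counts of the library total), which is above the lowest Ocn level of 12.4 CPM. In Ocn the level was 12.4 to 20.6 CPM, and in Prx1 it was 0 to 28.0 CPM.

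The mean level of miR-22-5p was 16.6 ± 2.8 CPM over the 6 Ocn libraries and 12.2 ± 8.8 CPM over the 10 Prx1 libraries (± SD). The Prx1 libraries enclosed the range of all 6 Ocn libraries. It did not pass the low-count filter of the fit, as it reached the required 20.5 CPM in 3 of 16 libraries, against 16 of 16 for miR-22-3p. On log2(CPM + 1) the mean was 4.12 ± 0.24 in Ocn and 3.26 ± 1.45 in Prx1, and the difference of 0.86 did not pass (exact permutation test, 2-sided, p = 0.179, adjusted p = 0.238 over the 4 tests). In an edgeR fit with no filter its log2 fold change was 0.37 (SE 0.34, adjusted p = 0.529). The SE is nearly as large as the value, so the estimate is set apart neither from 0 nor from the 0.45 of the 3p arm. Its spread in Ocn, an SD of 2.80 CPM, was below the 4.42 CPM that counting alone gives, so the Ocn libraries could not be told apart at this depth.

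The arms were far from equal in abundance. Over all libraries, 3537 counts fell on the 3p arm and 144 on the 5p arm, a ratio of 24.6. With counts pooled over libraries, the 5p share of both arms was 3.70% in Ocn (90 of 2431 counts, 95% Wilson interval 3.02% to 4.53%) and 4.32% in Prx1 (54 of 1250 counts, 3.33% to 5.59%). These intervals leave out the spread between libraries. By library the 5p share was 3.38% to 4.84% in Ocn and 0% to 7.56% in Prx1. The Ocn libraries lay within the span of the Prx1 libraries.

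**Figure D2:**
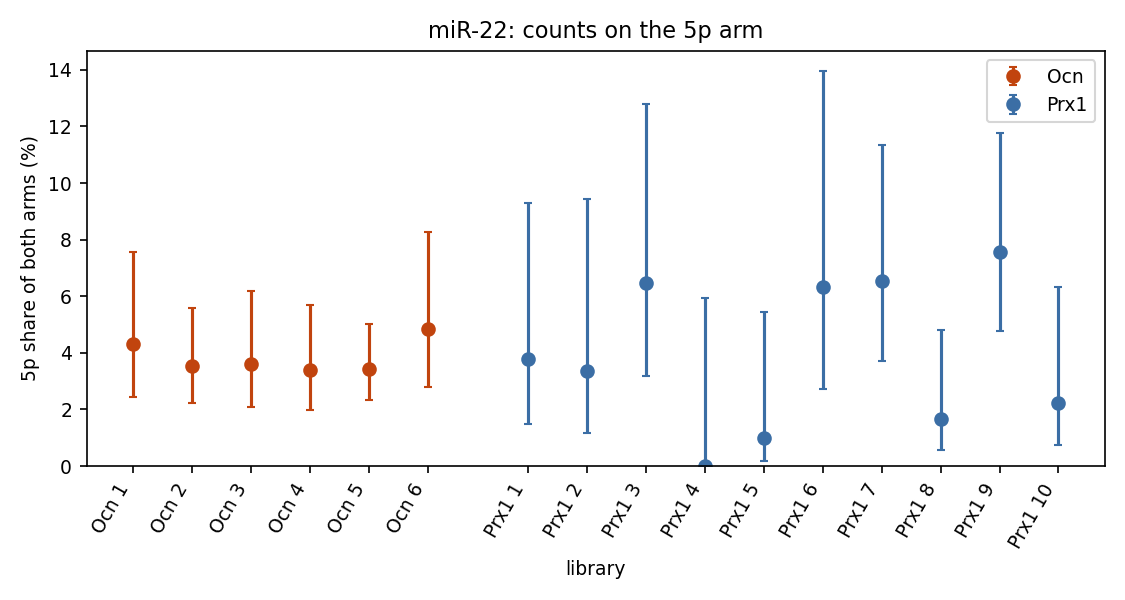
Share of miR-22 counts on the 5p arm in each library, in percent of the counts on both arms, with 95% Wilson intervals (counting error). The Ocn libraries, on the left, sit between 3.38% and 4.84%, and the Prx1 libraries spread from 0% to 7.56% with wider intervals on fewer counts.

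Arm usage was put on a log2 scale as (5p + 0.5)/(3p + 0.5), and this ratio was -4.61 ± 0.23 in Ocn and -4.79 ± 1.15 in Prx1 (SD over 6 and 10 libraries). The difference was 0.18 (SE 0.43, limma adjusted p = 0.842, 95% interval -0.72 to 1.08), fitted over 45 hairpins, of which 6.67% were called. An exact permutation test gave p = 0.717, the highest of the 4. The interval allows a shift of about 1 on the log2 scale in Ocn, so equal arm usage is not shown. The sign of this small difference also changed with the count added and without Prx1 4. The pooled 5p share went the other way, with 3.70% in Ocn and 4.32% in Prx1. Of the 45 hairpins, miR-22 had the 10th lowest ratio (mean of the group means, -4.70), between miR-223 (-4.86) and miR-106b (-4.48). Its 3p arm was thus favoured to a similar degree as that of miR-223, a myeloid microRNA.

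Added together, the arms gave a log2(CPM + 1) of 8.75 ± 0.25 in Ocn and 8.26 ± 0.23 in Prx1 (SD over 6 and 10 libraries). The difference in means of 0.49 passed the threshold (exact permutation test, 2-sided, p = 0.00212, adjusted p = 0.00425 over the 4 tests). It was almost wholly the 3p arm by count. These levels are relative to a library's counts, so they also move when other microRNAs change. A larger part of vesicles that carry miR-22, more miR-22 per vesicle and less of other microRNAs cannot be told apart here.

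The entry whose pattern over libraries was most like that of miR-22-3p was miR-1a-3p, the abundant microRNA of heart and skeletal muscle. After each group's mean was subtracted, their log2 CPM had a Pearson r of 0.74 over the 16 libraries, the highest of 233 entries compared. It was 0.43 within the 6 Ocn libraries and 0.81 within the 10 Prx1 libraries. Scaled to library totals instead, and again around group means, r was 0.72 and Spearman's rho 0.74. It was 0.60 without Prx1 7 and Prx1 9, the libraries farthest from the median of miR-1a-3p once its group means were subtracted. These are descriptions of libraries that share their totals, and the entry was picked for its high r.

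miR-1a-3p had 46064, 43647, 53942, 50257, 61048 and 34766 CPM in Ocn libraries 1 to 6. In Prx1 it ran from 23003 CPM in Prx1 9 to 55648 CPM in Prx1 7. Prx1 7 thus held the highest level of both microRNAs among the Prx1 libraries, and Prx1 9 the lowest of miR-1a-3p. For miR-22-3p, Prx1 9 was level with Prx1 2 and Prx1 3, each at 256 CPM. The log2 fold change of miR-1a-3p was 0.34 (SE 0.17) and missed the threshold (edgeR adjusted p = 0.187). With its log2 CPM as a covariate, a setting chosen once the likeness was known, the log2 fold change of miR-22-3p was 0.26 (SE 0.13, edgeR adjusted p = 0.220) in place of 0.45, and 12 of 234 microRNAs were called in place of 32.

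**Figure D3:**
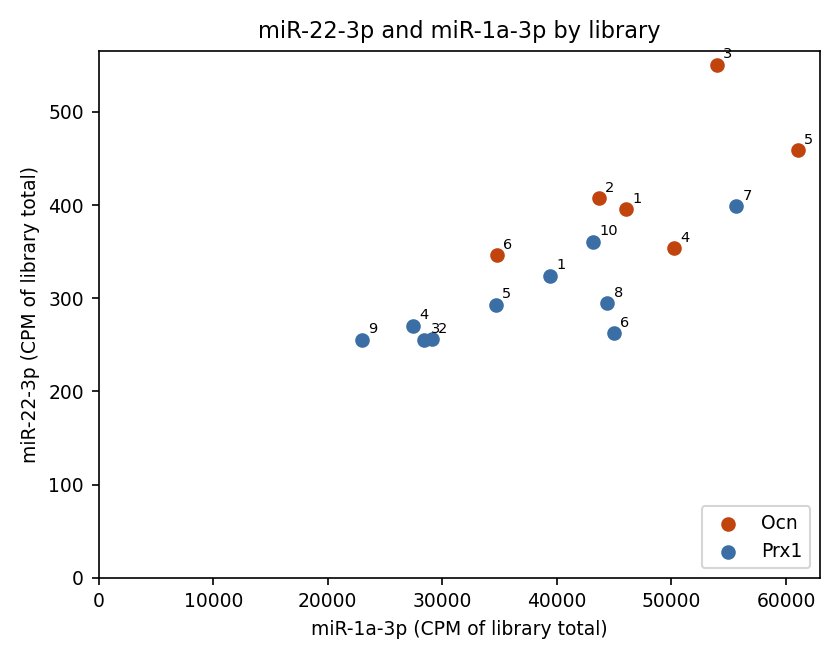
miR-22-3p against miR-1a-3p in each library, both in CPM of the library total on linear axes from 0, labelled by replicate number. Prx1 9 (23003 and 256 CPM) lies at the lower left and Prx1 7 (55648 and 399 CPM) at the upper right of the Prx1 libraries; Ocn 3 has the highest miR-22-3p level, at 551 CPM.

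The other tested members of the muscle list had log2 fold changes below 0. The 5p arm of miR-133a, which is not on the list, went the other way (0.77, SE 0.30, edgeR adjusted p = 0.0883). Of the 7 on the muscle list, 4 were tested and 2 were called, both lower in Ocn, beside 7.69% of all tested microRNAs: miR-133a-3p by -0.68 (SE 0.16) and miR-133b-3p by -0.96 (SE 0.24) on the log2 scale. miR-206-3p, of skeletal muscle, was at -0.29 (SE 0.24) and, like miR-1a-3p, was not called. The median of the 4 was -0.48. The summed level of the list was 46734 to 77424 CPM in Ocn and 39906 to 70781 CPM in Prx1. The 3 members that did not pass the filter are known from heart and slow muscle, and all were low. miR-208a-3p had 1 count in all and was at 0 in 15 of the 16 libraries. miR-208b-3p had 91 counts and was at 0 in 2 libraries, with a mean of 10.4 CPM in Ocn against 9.01 CPM in Prx1. miR-499-5p had 53 counts and was at 0 in 3 libraries, with a mean of 5.50 CPM in Ocn against 4.86 CPM in Prx1. The part of muscle-derived RNA in the level of miR-22-3p was not tested.

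The entries next most like miR-22-3p were miR-125a-5p (r = 0.63), miR-1306-5p (r = 0.61), miR-125b-5p (r = 0.60) and miR-434-3p (r = 0.59), over the same 16 libraries. miR-125a-5p and miR-125b-5p share a seed family of their own and were abundant, at 6665 and 11917 CPM in Ocn and 5555 and 11631 CPM in Prx1 (TMM-scaled means). miR-1306-5p and miR-434-3p were low, at 28.5 and 20.9 CPM in Ocn and 24.1 and 28.7 CPM in Prx1. None of the 5 was itself called between the groups. The 2 arms of miR-22 had an r of 0.20 with each other, 82nd of 234 for the 5p arm, whose counts are too few for its likeness to other entries to be read. By the same measure, the entries most like miR-22-5p were miR-1306-5p, miR-30a-3p, miR-671-5p, miR-25-3p and miR-532-3p (r = 0.67 to 0.74).

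miR-22-3p belongs to a list of 18 microRNAs reported to promote osteogenic differentiation, of which 15 were tested. Of these, 3 were called higher in Ocn, miR-22-3p among them, and 1 was called lower, beside 5.98% and 7.69% of all tested microRNAs. In edgeR 7 of the 15 had an unadjusted p below 0.05, and DESeq2 and voom each called 6, in either direction. Over all 234 tested microRNAs, 62 had an unadjusted p below 0.05 in edgeR, DESeq2 called 42 and voom called 48. The others higher were miR-181a-5p (0.61, SE 0.11) and miR-218-5p (0.39, SE 0.12), which has been tied to Wnt signalling in osteoblasts. The called lower one was miR-29a-3p (-0.76, SE 0.18), which represses collagen and other matrix genes. The median log2 fold change of the 15 was 0.20, against 0.01 for all tested, and 11 of them were above 0. Its called members went both ways.

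**Figure D4:**
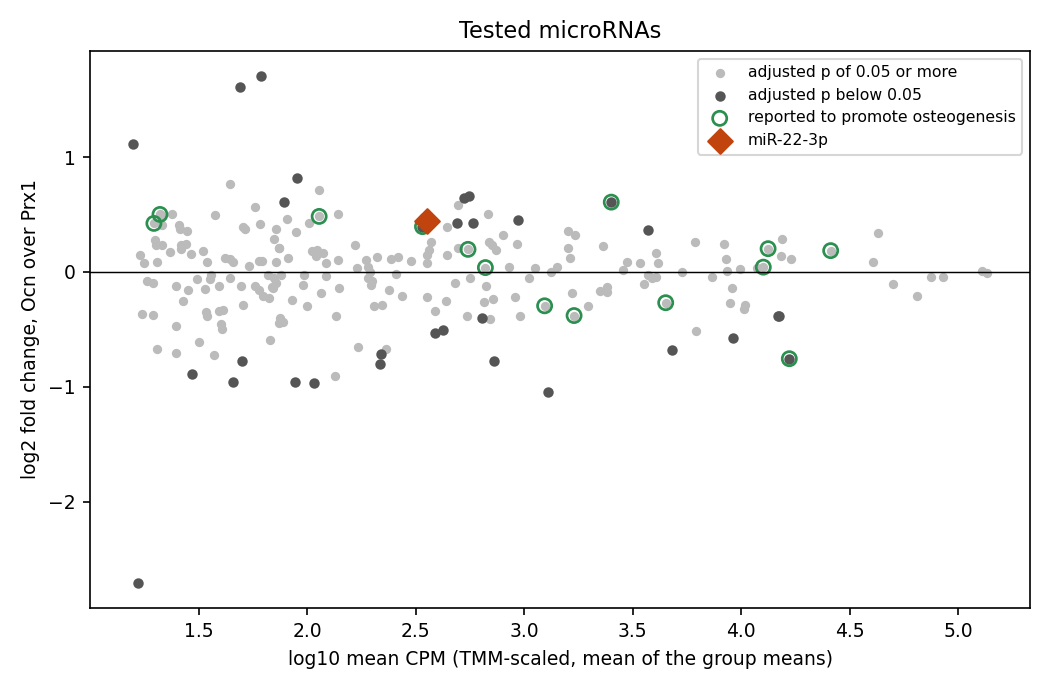
Log2 fold change, Ocn over Prx1 (vertical axis), against log10 mean CPM (horizontal axis) for the 234 tested microRNAs. Dark points passed an adjusted p of 0.05 in edgeR, green rings mark the 15 tested members of the list reported to promote osteogenesis, and the orange diamond marks miR-22-3p at 0.45.

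Of 21 microRNAs reported to restrain osteogenic differentiation, 14 were tested, 1 was called higher in Ocn (miR-27a-3p, 0.66, SE 0.14) and 2 were called lower (miR-30d-5p, -0.58, SE 0.13, and miR-133a-3p), with a median of 0.06. In edgeR 4 of the 14 had an unadjusted p below 0.05, and DESeq2 and voom each called 4, in either direction. Over all 234 tested microRNAs, edgeR called 5.98% higher and 7.69% lower, DESeq2 called 42 and voom called 48. Of the same 234, 62 had an unadjusted p below 0.05 in edgeR. Of the 14 stromal microRNAs, all tested, 3 were called higher by edgeR and 0 lower, beside the same 5.98% and 7.69%. In edgeR 6 of these 14 had an unadjusted p below 0.05, and DESeq2 and voom each called 4, in either direction. The 3 called higher by edgeR were miR-99a-5p (0.45, SE 0.14), miR-199a-5p (0.43, SE 0.13) and miR-218-5p. The changes of these 3 were close in size to that of miR-22-3p. The median of the 14 was 0.22, and 10 of the 14 were above 0. Below 0 were miR-10b-5p (-0.41, SE 0.14, edgeR adjusted p = 0.0569), miR-214-3p (-0.29), miR-145a-5p (-0.19) and let-7c-5p (-0.05). The calls here are those of the edgeR fit over all tested microRNAs.

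Markers of other cells that the plasma could hold were set beside miR-22-3p, whose change was not tested against them. Over all 234 tested microRNAs, edgeR called 5.98% higher and 7.69% lower, DESeq2 called 42 and voom called 48. Of the same 234, 62 had an unadjusted p below 0.05 in edgeR. Of 6 myeloid and leukocyte microRNAs, 0 were called by edgeR, DESeq2 or voom, with 0 at an unadjusted p below 0.05 in edgeR, and the summed level was 54791 to 116993 CPM in Ocn and 56962 to 89672 CPM in Prx1, most of it miR-142a-3p. Of 5 erythroid entries, 0 were called higher and 2 lower, miR-486a-5p and miR-486b-5p (both -0.38, SE 0.13), whose counts are near-identical and whose reads may be shared. In edgeR 3 of the 5 had an unadjusted p below 0.05, and DESeq2 and voom each called 3, in either direction. The other erythroid entries were above 0 and not called by edgeR: miR-144-3p at 0.58 (SE 0.20, edgeR adjusted p = 0.0569), miR-451a at 0.22 (SE 0.18) and miR-144-5p at 0.17 (SE 0.17). The median of the 5 was 0.17. Among 4 tested lymphoid entries, miR-181a-5p was called higher and miR-150-5p lower (-1.05, SE 0.20). Of the neural list, 1 of 3 tested was called, miR-219a-5p (0.82, SE 0.20). Of the tested endothelial (2), liver (2) and epithelial (3) microRNAs, 0 were called by edgeR, DESeq2 or voom, with 0 at an unadjusted p below 0.05 in edgeR. Of 4 chondrocyte microRNAs, 0 were called by edgeR or DESeq2 and 2 by voom, with 2 at an unadjusted p below 0.05 in edgeR. Prx1 5 held the highest liver sum, 2005 CPM, and miR-22-3p there was 293 CPM, near the Prx1 mean.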

How the data were processed

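Small RNA of vesicles captured with an HA antibody was sequenced from QIAseq miRNA libraries of 1 ng RNA, per the labels' protocols. The deposited table holds raw counts, 1 row per mature microRNA; the whole numbers and unequal column totals show that the authors did not normalize them. Per the submitters' processing notes, cutadapt 1.18 and the mm10 build were used. The choice of aligner, counting tool and annotation is not given in the sources used here. Groups follow the titles, with 6 Ocn and 10 Prx1 libraries. Sex per library and sequencing batch were not known.

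CPM were computed on library totals unless TMM scaling is named. Differential abundance was tested on all 234 entries that passed filterByExpr with edgeR 4.0.16 in R 4.3.3 (quasi-likelihood F test, TMM, robust, group only, Benjamini-Hochberg adjustment, threshold 0.05), and arm ratios with limma 3.58.1. Since miR-22-5p failed the filter, it was taken from a fit with no filter and from an exact permutation test. For single values, groups were compared with 2-sided exact permutation tests (scipy 1.17.1). Likeness was the Pearson r of log2 CPM (prior count 2) around group means. Alternatives included DESeq2 1.42.0, limma voom, other scalings and filters, thinning, and each library left out. Fits were tested on 20 simulated data sets of 973 entries: for Ocn over Prx1, 53.2% of tested entries changed 1.5-fold and 91.8% of those changed 2-fold were recovered, and 3.70% of calls were false. The fold of the hairpin was predicted with ViennaRNA 2.7.2.

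The members, lists and tests were chosen with earlier results of these data known. The rule for names covered both arms, their sequence relatives, neighbours by abundance, the 5 entries most like each arm, up to 4 called members and the most abundant member of each list, and the hairpins next in arm ratio; miR-3966 and single entries named outside this were chosen after their values were seen.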

Additional observations from a re-analysis of the deposited data

How the results depend on the processing

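The log2 fold change of miR-22-3p was above 0 under all 30 alternatives to the reported 0.45 and kept its call in 25. It missed the threshold with no low-count filter (0.52, edgeR adjusted p = 0.0572), with the log10 library total as covariate (0.51), with miR-1a-3p as covariate (0.26; this setting was chosen after seeing the data), and without Prx1 2 or Prx1 3; the cause was not tested. With each library left out in turn it ran from 0.40 to 0.54 (adjusted p from 0.00832 to 0.0540), and under the other settings adjusted p ran from 0.00636 to 0.220. After thinning to 225273 counts it was called in 15 of 20 draws. The number of calls, 32, was 24 to 36 with each library left out, 0 with the library total as covariate and 12 with miR-1a-3p as covariate. Upper quartile scaling put the median log2 fold change at 0.13, against 0.01, and gave 26 higher and 11 lower calls in place of 14 and 18, with miR-22-3p at 0.57.

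miR-22-5p was above 0 and never called in its 30 alternatives (0.12 to 0.82). The difference in arm ratio, 0.18, was -0.0094 with 1 count added, -0.33 with the library total as covariate and -0.056 without Prx1 4, and was called in none; over the libraries left out it ran from -0.056 to 0.318. The summed arms (0.41 to 0.59) and the share of miR-22-3p kept their direction in all alternatives. Their call held (unadjusted permutation p of at most 0.00699) in all but the replicate block, the only one judged on its adjusted p. The library total was not tried as a covariate for the summed arms or the share, so their dependence on it was not tested. Libraries with the same number had weak positive correlations (0.02 to 0.20, above 0.1 in 3 of 6). Of the 6 Ocn libraries, 1 was best with its own number. Such weak values over 6 pairs cannot settle whether the numbers pair the mice. With the replicate block over numbers 1 to 6, miR-22-3p was at 0.59 (edgeR adjusted p = 0.0188) and 27 microRNAs were called. There the summed arms (0.59) and the share (0.0142 percentage points) each had p = 0.03125 (exact sign-flip permutation test), the smallest that 6 pairs can give, and an adjusted p of 0.0625 over the 4 tests. Depth limits the 5p arm most, with 0 to 25 counts per library.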

Other observations

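The entries least like miR-22-3p across libraries, by the same correlation around group means, were miR-501-3p (r = -0.71), miR-339-5p (r = -0.68) and miR-210-3p (r = -0.64, but 0.33 within the 6 Ocn libraries), over 16 libraries and 233 entries compared. They were named after their values were seen. The log2 fold change of miR-501-3p was -0.72 (SE 0.18, edgeR adjusted p = 0.0106) and that of miR-339-5p was -0.53 (SE 0.16, edgeR adjusted p = 0.0257), both lower in Ocn. The level of miR-501-3p was 166 CPM in Ocn against 273 CPM in Prx1, and that of miR-339-5p was 315 CPM in Ocn against 457 CPM in Prx1 (TMM-scaled means, n = 6 and 10). miR-210-3p, known from hypoxia, was low, at 24.6 CPM in Ocn against 17.3 CPM in Prx1, and not called (0.50, SE 0.32, edgeR adjusted p = 0.307).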
